A study of Mus musculus with 8 samples.

Results

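The genes described here are 10 genes of the endoplasmic reticulum (ER) unfolded protein response, *Hspa5*, *Hsp90b1*, *Xbp1*, *Dnajb9*, *Sdf2l1*, *Calr*, *Pdia4*, *Herpud1*, *Edem1* and *Ern1*. They were chosen by symbol, through GENCODE M21, from the 49315 genes of the count table. All 10 passed the filter on low counts, among 13051 genes that did. Expression was measured by RNA-Seq, after removal of ribosomal RNA, in bone marrow-derived macrophages (BMDMs) grown from C57BL/6 mice with macrophage colony-stimulating factor (mMCSF). One group of 4 libraries came from BMDMs transfected with gapmeRs against *MAARS*, a macrophage long non-coding RNA, and the other 4 from BMDMs transfected with negative control gapmeRs, each at 25 nM by the labels, a unit that the study's methods give as an amount (nmol). A gapmeR is an antisense oligonucleotide that directs cleavage of the RNA it pairs with. Neither group was given an ER stressor, as far as the labels say. Both were transfected and no untransfected cells were measured, so the level of these genes in resting BMDMs is not known from these data. The labels give no age or sex of the mice and do not say whether the libraries came from separate mice or cultures. The p-values therefore measure the spread between these samples, which may be technical. Effects of the oligonucleotide itself and of the loss of its target cannot be told apart in this design.

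The unfolded protein response matches the folding capacity of the ER to the load of proteins entering it. It is started by the membrane sensors IRE1α, ATF6 and PERK. IRE1α, encoded by *Ern1*, splices *Xbp1* mRNA so that it encodes an active transcription factor. ATF6 is cut in the Golgi and released as a transcription factor, and PERK phosphorylates eIF2α, which slows translation while favouring that of ATF4. These factors raise ER chaperones, oxidoreductases and degradation components. In macrophages of atherosclerotic lesions, cholesterol loading is a known trigger of the response, and its late target CHOP, encoded by *Ddit3*, is known for promoting cell death.

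The promoters of 4 of these genes are shown first because they carry the elements through which the response is known to act. The ER stress element (ERSE) is CCAAT, 9 bases of any kind and CCACG. NF-Y binds its first part and ATF6 or XBP1 the second. ERSE-II is ATTGG, 1 base of any kind and CCACG. The C/EBP-ATF response element (CARE), an ATF4 site, was searched as TGATGCAAT, TGATGAAAC or TGATGCAAC. RefSeq windows from 250 bases before to 50 after the start site (GRCm38.p6) were searched on both strands, and all 10 genes had one. The stretches below run 5′ to 3′ on the strand of the gene, with the elements in capitals. They lie at chr2:34772015-34772053 (+) for *Hspa5*, chr10:86705523-86705666 (−) for *Hsp90b1*, chr8:84847065-84847103 (−) for *Calr* and chr8:94386306-94386397 (+) for *Herpud1*.
Hspa5: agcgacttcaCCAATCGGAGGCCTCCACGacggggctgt
Hsp90b1: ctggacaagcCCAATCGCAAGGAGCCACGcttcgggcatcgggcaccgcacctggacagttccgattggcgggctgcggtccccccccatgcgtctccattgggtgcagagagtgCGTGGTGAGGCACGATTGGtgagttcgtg
Calr: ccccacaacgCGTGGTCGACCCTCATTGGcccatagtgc
Herpud1: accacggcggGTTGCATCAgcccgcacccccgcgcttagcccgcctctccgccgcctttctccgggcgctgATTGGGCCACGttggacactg

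An ERSE was found in 3 of the 10 promoters, those of *Hspa5*, *Hsp90b1* and *Calr*, against 0.119% of the 32851 mouse promoters in the reference. *Hsp90b1* held 2, the second of which reads on the opposite strand, as does that of *Calr*. ERSE-II was in *Herpud1* alone among the 10, and in 0.0365% of all promoters. *Herpud1* also held a CARE on the opposite strand, a motif in 0.606% of promoters. It was thus the only one of the 10 with a match to an element of the PERK and ATF4 arm as well as one of the ATF6 and XBP1 arm. The core of the unfolded protein response element, TGACGTGG, was in none of the 10 and in 0.676% of promoters. The first part of the ERSE by itself is a common box (37.4% of promoters, 8 of the 10 genes), as is the second (32.8% and 9 of the 10), and both are contained in each ERSE and ERSE-II. *Xbp1* had a match to none of these within this window. A match is a run of letters and does not show that a factor bound there in BMDMs.

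**Figure D1:**
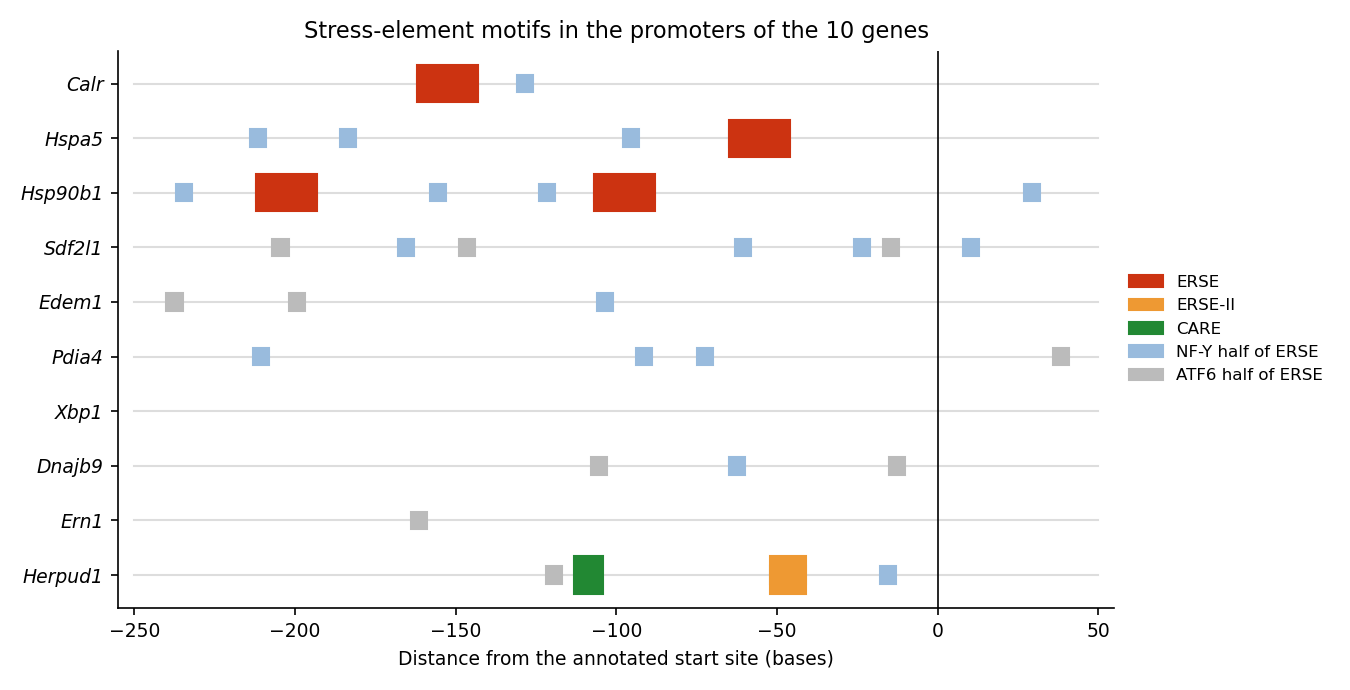
Positions of the motifs in the promoter windows of the 10 genes, with distance from the RefSeq start site in bases on the x axis and 1 gene a row. Tall boxes are ERSE (red), ERSE-II (orange) and CARE (green), and small boxes are the first (blue) and second (grey) parts of the ERSE lying outside them. ERSE boxes stand in *Calr*, *Hspa5* and *Hsp90b1*, and *Herpud1* has ERSE-II and CARE.

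*MAARS* itself (Gm14461, ENSMUSG00000054510) was checked first. Its level was 12.19, 15.08, 12.98 and 12.23 CPM (counts brought to a common library size with TMM factors) in control gapmeR libraries 2, 5, 6 and 7, and 7.71, 6.41, 7.31 and 5.85 in MAARS gapmeR libraries 9, 11, 13 and 15. Every MAARS gapmeR library was below every control library. The log2 fold change, MAARS gapmeR minus control gapmeR, was -0.95 (SE 0.112, edgeR quasi-likelihood test, adjusted p = 5.8e-05). The libraries held 19287279 to 24541205 counts, and the 10 genes were covered by 371 (*Herpud1*) to 27160 (*Calr*) counts each.

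At the level of the whole group, 4 of the 10 genes changed after *MAARS* knockdown, *Herpud1* and *Hsp90b1* upwards and *Calr* and *Ern1* downwards. Across all genes tested, 45.4% passed the same threshold (edgeR adjusted p under 0.05), 21.3% of the genes tested as higher and 24% as lower. The share of the 10 that changed, 40%, was therefore near the background. The groups of 4 libraries did not overlap for 3 of the 10 (*Herpud1*, *Hsp90b1* and *Calr*), against 42.1% of all genes. The median log2 fold change of the 10 was -0.04, and 0.01 over all genes. Their median size of change, regardless of sign, was 0.0959 on the log2 scale against 0.227 for all genes. In bulk RNA, a change in the number of cells expressing a gene and a change in its RNA per cell cannot be told apart.

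*Herpud1* (ENSMUSG00000031770, chr8:94386438-94395377, GRCm38, + strand) showed the largest change of the 10. It encodes an ER membrane protein that brings ubiquitin ligases and retrotranslocation components together for degradation of misfolded proteins. Its level was 24.1, 24.5, 20.1 and 21.3 CPM in control libraries 2, 5, 6 and 7, and 43.5, 38.1, 36.6 and 44.5 CPM in MAARS gapmeR libraries 9, 11, 13 and 15. The lowest MAARS gapmeR library was well above the highest control library. The mean rose from 22.5 ± 2.15 to 40.7 ± 3.91 CPM (SD, n = 4 each), by 80.8% with a 95% interval of 58.8% to 105.9% (log2 fold change 0.85, SE 0.0854, edgeR adjusted p = 1.84e-05). Its call was kept in all 15 alternative analyses, with log2 fold changes from 0.80 to 0.92. The other degradation gene of the group did not follow. *Edem1*, a lectin that sends misfolded glycoproteins to degradation, was 270.1, 282.2, 251.6 and 234.1 CPM in control libraries and 247.9, 278.3, 263.7 and 239.8 CPM in MAARS gapmeR libraries. These ranges covered each other almost entirely, and the change was -0.01 (95% interval -0.16 to 0.13, edgeR adjusted p = 0.90). Within each library, the ratio of *Herpud1* to *Edem1* counts, which does not depend on library scaling, was 0.0866 ± 0.00491 in controls and 0.159 ± 0.0250 with MAARS gapmeR.

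Among the sensors and factors, *Ern1* (ENSMUSG00000020715, chr11:106394650-106487852, − strand) fell. It was 109.9, 121.3, 118.0 and 116.2 CPM in control libraries and 110.7, 97.8, 90.2 and 95.8 CPM in MAARS gapmeR libraries. MAARS gapmeR library 9 stayed inside the control range, and the other 3 lay below it. The mean went from 116.4 ± 4.76 to 98.6 ± 8.69 CPM (log2 fold change -0.24, SE 0.0621, edgeR adjusted p = 0.00879), and the call was kept in all 15 alternatives. *Xbp1*, the substrate of its protein, was 97.0, 94.6, 100.2 and 93.6 CPM in control libraries and 96.4, 95.5, 87.9 and 97.2 CPM in MAARS gapmeR libraries. The groups overlapped, and the 95% interval of the change in its total RNA ran from -8.84% to 5.08% (edgeR adjusted p = 0.614). Gene counts sum the spliced and unspliced forms of *Xbp1*, so the activity of IRE1α was not measured.

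The ER chaperones moved in different directions. *Calr* (ENSMUSG00000003814, chr8:84841850-84846934, − strand), encoding the lectin chaperone and calcium store calreticulin, was 1218, 1231, 1188 and 1129 CPM in control libraries and 976.2, 1081, 1031 and 1016 CPM in MAARS gapmeR libraries. No MAARS gapmeR library reached the lowest control. Its mean fell from 1192 ± 45.3 to 1026 ± 43.2 CPM (log2 fold change -0.22, SE 0.0499, edgeR adjusted p = 0.0046), a call kept in all 15 alternatives.

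*Hsp90b1* (ENSMUSG00000020048, chr10:86690209-86705509, − strand), encoding the ER HSP90 paralog GRP94, was 665.5, 703.8, 620.0 and 591.0 CPM in control libraries. In MAARS gapmeR libraries it was 725.7, 726.6, 727.7 and 718.5 CPM. The MAARS gapmeR values were all higher and nearly equal, with a coefficient of variation of 0.572% against 7.71% in controls. This coefficient was also smaller with MAARS gapmeR for *Hspa5* (1.70% against 6.43%), *Sdf2l1* and *Edem1*, and larger for the rest of the 10. The difference in spread was not tested. The mean rose from 645.0 ± 49.7 to 724.6 ± 4.15 CPM (log2 fold change 0.17, SE 0.0559, edgeR adjusted p = 0.0294). This call was lost when any of 6 libraries was left out, with edgeR adjusted p = 0.0819 without control library 6, 0.078 without control 7, 0.058 without MAARS gapmeR 9, 0.0626 without 11, 0.0608 without 13 and 0.0538 without 15. Other annotated genes overlap 5.38% of its exon bases on the same strand and 10.3% on the other, and the sources used here do not state whether counting used strand.

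*Hspa5* (ENSMUSG00000026864, chr2:34771970-34777547, + strand) encodes BiP (GRP78), the main luminal HSP70, which also holds the sensors inactive. It was 756.6, 830.8, 806.3 and 719.2 CPM in control libraries and 720.9, 748.1, 730.5 and 722.8 CPM in MAARS gapmeR libraries. The MAARS gapmeR values lay at the lower end of the control range and all above its lowest member. The change was -0.09 (SE 0.0523, edgeR adjusted p = 0.176), with a 95% interval of -13.3% to 1.64%. An increase of BiP mRNA of the size of that of *Herpud1* lies outside this interval. The ratio of *Hsp90b1* to *Hspa5* counts within a library was 0.880, 0.847, 0.769 and 0.822 in controls and 1.01, 0.971, 0.996 and 0.994 with MAARS gapmeR, without overlap. The ratio of *Calr* to *Hspa5* counts was 1.47 to 1.61 in controls and 1.35 to 1.44 with MAARS gapmeR, and the ratio of *Herpud1* to *Hspa5* counts was 0.0289 ± 0.00293 and 0.0557 ± 0.00605. These ratios were not tested.

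The other 3 folding genes did not pass the test. *Pdia4*, a protein disulfide isomerase, was 86.6 to 93.1 CPM (median 89.3) in controls and 86.9 to 101.3 CPM (median 97.9) with MAARS gapmeR, with 3 of 4 MAARS gapmeR libraries above every control (95% interval -1.17% to 16.3%, edgeR adjusted p = 0.147). It passed in 2 of 15 alternatives, with upper-quartile factors and without MAARS gapmeR library 9. *Dnajb9*, the BiP cochaperone ERdj4, was 46.4 to 50.6 CPM in controls and 45.0 to 50.9 with MAARS gapmeR (-11.8% to 4.13%, edgeR adjusted p = 0.382). *Sdf2l1*, a further cofactor of BiP, was 49.1 to 65.5 CPM in controls and 53.2 to 58.8 with MAARS gapmeR (-15.6% to 9.82%, edgeR adjusted p = 0.631). Both groups overlapped for each of these genes. *Sdf2l1* had the widest control spread of the 10, a coefficient of variation of 13.9%.

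**Figure D2:**
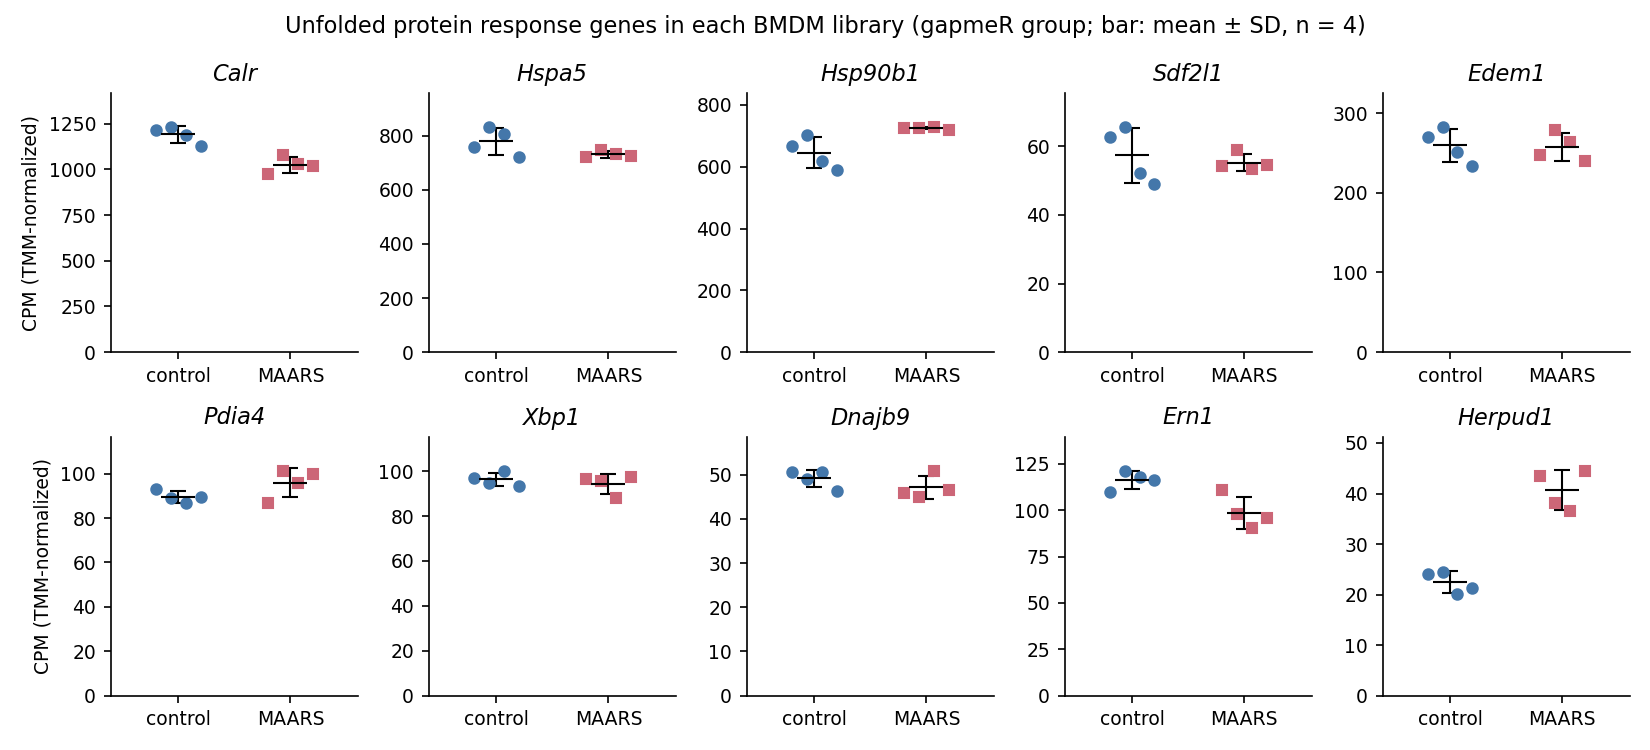
CPM of each of the 10 genes (y axis, TMM-scaled, from 0) in the 4 control gapmeR (blue circles) and 4 MAARS gapmeR (red squares) libraries, in replicate order from left to right, with mean and SD as bars. The groups are apart for *Calr*, *Hsp90b1* and *Herpud1*, and overlap for the other genes, including *Hspa5* at 719.2 to 830.8 CPM in controls.

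**Figure D3:**
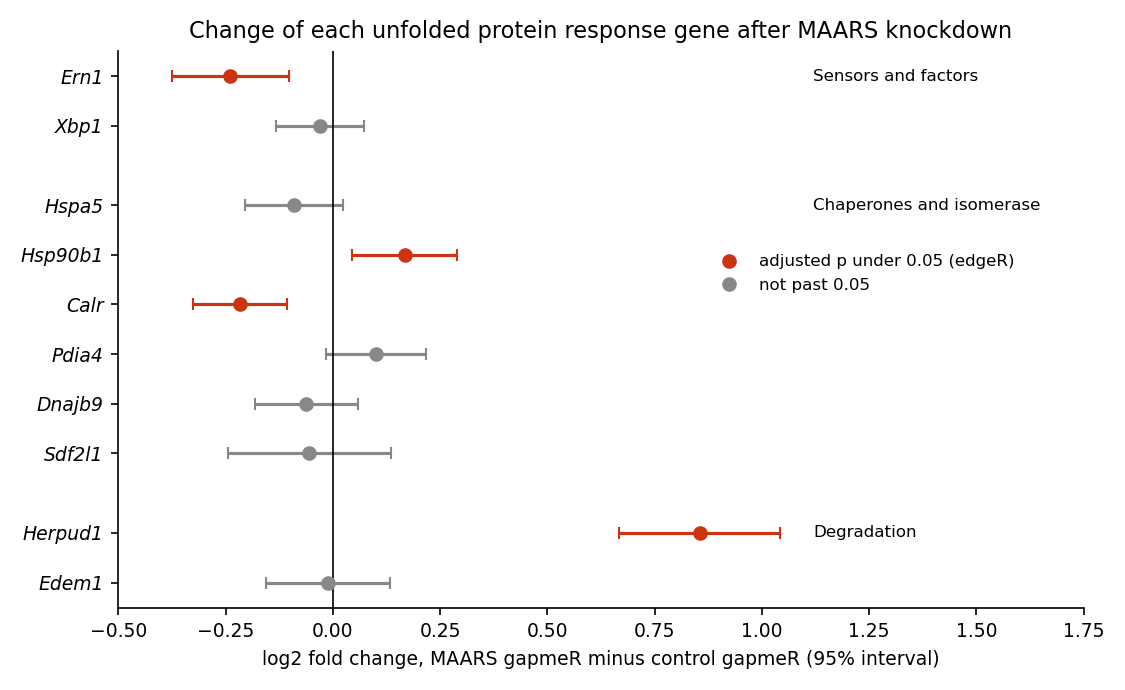
Log2 fold change of each of the 10 genes, MAARS gapmeR minus control gapmeR (x axis), with 95% intervals as bars and genes grouped by role. Red points passed an edgeR adjusted p of 0.05. *Herpud1* stands at 0.85, and the other 9 lie between -0.24 and 0.17.

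Per kilobase of exon, the control levels spanned a wide range. *Calr* was highest at 413.7 ± 15.7 CPM per kilobase, followed by *Hspa5* at 184.0 ± 11.8 and *Hsp90b1* at 160.0 ± 12.3. Next came *Sdf2l1* (51.8 ± 7.22), *Edem1* (40.2 ± 3.27), *Pdia4* (37.3 ± 1.11), *Xbp1* (29.7 ± 0.905), *Dnajb9* (19.3 ± 0.786), *Ern1* (14.2 ± 0.583) and *Herpud1* (9.63 ± 0.922). Neighbours in this order overlapped in 2 places, between *Hspa5* and *Hsp90b1* and between *Edem1* and *Pdia4*. With MAARS gapmeR, *Hsp90b1* (180 ± 1.03) stood above *Hspa5* (173 ± 2.93) without overlap. This order depends on the exon length used, which joins the exons of all annotated transcripts. In CPM it was the reverse (730.6 for *Hspa5* and 724.6 for *Hsp90b1*), and the ranges overlapped. *Herpud1* (17.4 ± 1.68) moved above *Ern1* (12.1 ± 1.06) and overlapped *Dnajb9* (18.5 ± 1.02).

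The libraries of a group were not alike in these genes. Control library 5 was the highest control for 7 of the 10 and control library 7 the lowest for 7 of the 10. *Hspa5*, *Hsp90b1*, *Sdf2l1*, *Calr* and *Edem1* shared both. Among the MAARS gapmeR libraries, library 11 was highest for 5. The profile of *Hspa5* over the 8 libraries was compared with that of every other gene tested, as the root mean square distance of log2 CPM after centring each gene on its mean. The 5 nearest were *Trappc6b* (0.0230), *Ddost* (0.0238), *Mtmr12* (0.0254), *Arpc5* (0.0263) and *Stk4* (0.0285). The nearest of the 10 was *Dnajb9* at 0.0724, which ranked 711 of 13050, ahead of *Xbp1* (0.0755), *Calr* (0.0778) and *Edem1* (0.0785). *Herpud1* was the farthest at 0.489 (rank 11364).

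The entry points of the other arms differed from one another. *Eif2ak3*, encoding PERK, was 29.6, 33.2, 29.9 and 28.7 CPM in control libraries and 45.4, 38.5, 37.9 and 36.8 CPM in MAARS gapmeR libraries, without overlap. It rose by 30.6% (log2 fold change 0.39, SE 0.0752, edgeR adjusted p = 0.00163), and another gene overlaps 8.05% of its exon bases on the other strand. *Atf6* was 173.3 ± 9.83 and 190.1 ± 8.60 CPM and narrowly missed the threshold (log2 fold change 0.13, edgeR adjusted p = 0.0563), passing it in 3 of 15 alternatives. *Atf4*, the factor downstream of PERK, was 301.2 ± 10.9 and 279.0 ± 32.2 CPM with overlap (edgeR adjusted p = 0.241).

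*Ddit3* was 124.3, 124.6, 135.3 and 137.4 CPM in control libraries and 45.8, 69.3, 69.6 and 63.4 CPM in MAARS gapmeR libraries. Every MAARS gapmeR library was far below every control. The log2 fold change was -1.07 (SE 0.11, edgeR adjusted p = 2.1e-05), a fall of 52.4%, and other genes overlap 6.13% of its exon bases on the same strand and 4.73% on the other. The ratio of *Ddit3* to *Atf4* counts within a library was 0.434 ± 0.0366 in controls and 0.225 ± 0.0510 with MAARS gapmeR. *Herpud1* and *Ddit3*, both known to respond to ER stress, thus moved in opposite directions in these libraries.

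Lists of 173 further ER genes were described by counts and medians beside all genes tested. Of the 170 that were tested, 29 rose, 42 fell and 99 did not pass the test, 41.8% in all against the 45.4% of all genes, with a median of -0.00. The split depended on scaling and on the threshold. With a log2 fold change of at least 0.25 in size also required, 21 rose and 17 fell. Upper-quartile factors, which moved the median of all genes by 0.0627 on the log2 scale, gave 50 higher and 23 lower in this list, and 60.4% higher among all calls against 47.0% with TMM. By list, the share called was 54.5% for sensors and factors, 40% for chaperones, 55% for isomerases and 55.2% for degradation. It was 52.9% for the PERK arm and 60% for ER calcium and ER-phagy. These shares were not tested against the 45.4% of all genes.

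Of 11 further sensors and transcription factors, 3 rose, 3 fell and 5 did not pass. The 3 that fell became 2 in all alternative analyses but limma-voom and the one without MAARS gapmeR library 15. The weakest of the 3 calls was *Creb3l3*, at 2.65 and 1.95 CPM (edgeR adjusted p = 0.0491), named after its value was seen. *Mbtps1*, the Golgi protease that first cuts ATF6, rose from 64.6 ± 1.08 to 88.4 ± 5.23 CPM (log2 fold change 0.45, edgeR adjusted p = 3.32e-05). *Creb3*, an ER-anchored factor of the ATF6 type, fell from 79.3 ± 4.62 to 52.4 ± 1.39 CPM (-0.60, edgeR adjusted p = 8.05e-06), with 20.8% of its exon bases under a gene on the other strand. Its relative *Creb3l2*, named after its value was seen, rose from 10.9 to 23.3 CPM (1.09, edgeR adjusted p = 4.54e-05).

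Of 15 further chaperones and cochaperones, 2 rose, 4 fell and 9 did not pass (median 0.04). The 2 that rose became 1 without control library 2 or 6, or without MAARS gapmeR library 9, 13 or 15. *Dnajc10*, a reductase cochaperone of BiP, rose (0.30, edgeR adjusted p = 0.00239), and *Sil1*, the nucleotide exchange factor of BiP, fell (-0.36, edgeR adjusted p = 0.000396). Of 20 disulfide and proline isomerases and their oxidases, 6 rose, 5 fell and 9 did not pass (median 0.10). The 5 that fell became 3 without control library 2, 5 or 6 or MAARS gapmeR library 9 or 13, and 2 without MAARS gapmeR library 15. The 6 that rose became 4 to 6 when a library was left out. *Ero1lb*, an oxidase that recharges protein disulfide isomerases, rose from 17.98 ± 2.32 to 33.6 ± 0.903 CPM (0.90, edgeR adjusted p = 1.07e-05). *Erp44*, which retains such oxidases in the early secretory pathway, fell (-0.33, edgeR adjusted p = 0.000212).

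Of 29 degradation genes tested of 30, 5 rose, 11 fell and 13 did not pass (median -0.05). The 11 became 7 without control library 6 or 7, and upper-quartile factors turned the balance, to 9 higher and 5 lower. A log2 fold change of at least 0.25 in size turned it as well (4 higher, 3 lower), and at 0.01 it was 4 and 5. *Uggt1*, the folding sensor that reglucosylates unfolded glycoproteins for another round with calreticulin or calnexin, was 98.5, 106.6, 92.9 and 84.9 CPM in control libraries and 187.6, 175.6, 167.1 and 164.2 CPM in MAARS gapmeR libraries. It rose by 81.4% without overlap (0.86, SE 0.0697, edgeR adjusted p = 6.49e-06). *Nploc4*, a cofactor of the VCP extraction motor, fell from 121.3 ± 3.53 to 87.2 ± 2.06 CPM (-0.48, edgeR adjusted p = 8.42e-06).

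In the list of the PERK arm and the integrated stress response, 3 of 17 genes rose, 6 fell and 8 did not pass (median -0.11). The share called, 52.9%, stood beside 45.4% of all genes and was not tested against it. *Nupr1*, a stress-induced chromatin protein, was 32.3, 38.5, 41.9 and 42.5 CPM in control libraries and 15.1, 16.4, 18.1 and 17.3 CPM in MAARS gapmeR libraries. It fell by 56.9% (-1.21, SE 0.0922, edgeR adjusted p = 5.27e-06), with no overlap of the groups. *Cebpg*, a dimer partner of ATF4, rose (0.25, edgeR adjusted p = 0.00325). Among ATF4 targets named after their values were seen, *Asns*, asparagine synthetase, rose (0.48, edgeR adjusted p = 0.00807), opposite to *Ddit3*, and the pseudokinase gene *Trib3* was at -0.29 (edgeR adjusted p = 0.0957). The list also holds *Eif2ak2*, an interferon-inducible eIF2α kinase likewise named after its value was seen, which fell (-0.99, edgeR adjusted p = 1.03e-05). Its remaining called genes are also named after their values were seen. *Atf3* (-0.59, edgeR adjusted p = 0.00013), *Cebpb* (-0.37, edgeR adjusted p = 0.00838) and *Ppp1r15b* (-0.17, edgeR adjusted p = 0.00434) fell, as *Ddit3* did. *Ddit4* rose (0.65, edgeR adjusted p = 0.00435), as *Asns* did.

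Genes of protein entry into and exit from the ER were called in 22.9% and 21.4% of cases, beside 45.4% of all genes, a difference that was not tested. Of 35 translocon, signal peptidase and oligosaccharyltransferase genes tested of 36, 5 rose, 3 fell and 27 did not pass (median 0.01), with *Srp14* of the signal recognition particle higher (0.24, edgeR adjusted p = 0.00248). The 5 became 3 without control library 7 or MAARS gapmeR library 11, 8 without control library 5 and 11 with upper-quartile factors. *Srprb*, of its receptor, was lower (-0.44, edgeR adjusted p = 0.000846), and a gene of the same strand overlaps 20.7% of its exon bases. Of 28 COPII and Golgi retrieval genes tested of 29, 2 rose, 4 fell and 22 did not pass (median -0.02). This balance turned without control library 5 (4 higher, 3 lower) and without control library 6 or MAARS gapmeR library 15 (3 higher, 2 lower). It also turned with RLE factors (4 higher, 2 lower), upper-quartile factors (5 and 1), no filter (2 and 1) and at 0.01 (2 and 1). It was even without control library 2 (2 and 2) or MAARS gapmeR library 11 (3 and 3). A robust prior (4 and 4) and a log2 fold change of at least 0.25 in size (1 and 1) also gave an even balance. The coat subunits *Sec24d* (0.29, edgeR adjusted p = 0.000444) and *Sec24a* (-0.27, edgeR adjusted p = 0.00634) changed in opposite directions. Of 15 ER calcium and ER-phagy genes, 3 rose, 6 fell and 6 did not pass (median -0.09). The 3 became 1 without control library 6 or MAARS gapmeR library 9. The ER calcium sensor *Stim2* rose (0.28, edgeR adjusted p = 0.00334), and the calcium release channel *Itpr1* fell from 21.6 ± 2.75 to 12.5 ± 1.56 CPM (-0.79, edgeR adjusted p = 0.000206).

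For contrast, chaperones of the cytosol and mitochondria were examined. Of 36 tested of 37, 0 rose, 17 fell and 19 did not pass by edgeR, and 30 of the 36 had a log2 fold change below 0 (median -0.13). At an unadjusted p under 0.05, edgeR had 1 higher, and DESeq2 and limma-voom called 0 higher. The share called lower, 47.2%, stood beside 24% called lower among all genes, and was not tested against it. All 8 subunits of the TRiC chaperonin, which folds actin and tubulin, were below 0, and 4 of them fell. *Cct3* fell from 148.9 ± 4.66 to 104.7 ± 3.27 CPM (-0.51, edgeR adjusted p = 7.7e-06), and *Dnajb6*, the gene of smallest p among those above 0, was at 0.10 (edgeR adjusted p = 0.0827). With upper-quartile factors, 1 of the list rose and 11 fell. Heat shock and ER genes were not tested against each other.

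**Figure D4:**
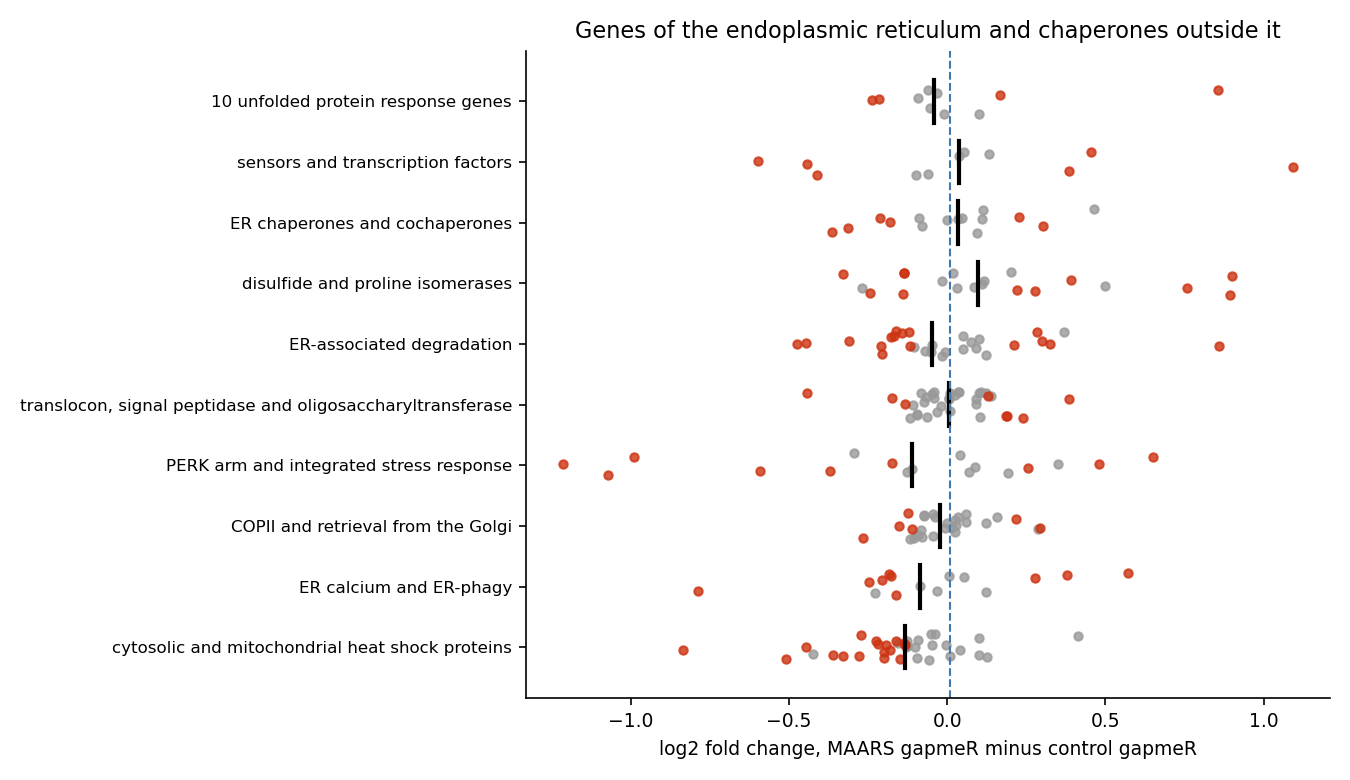
Log2 fold change, MAARS gapmeR minus control gapmeR (x axis), of each gene tested in the 10-gene group, 8 further ER lists and the chaperones outside the ER, 1 list a row. Red points passed an edgeR adjusted p of 0.05, grey points did not, black bars are list medians (from -0.13 to 0.10), and the dashed line is the median of all genes (0.01). ER lists have red points on both sides, and in the chaperones outside the ER all 17 red points lie below 0.

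**Figure D5:**
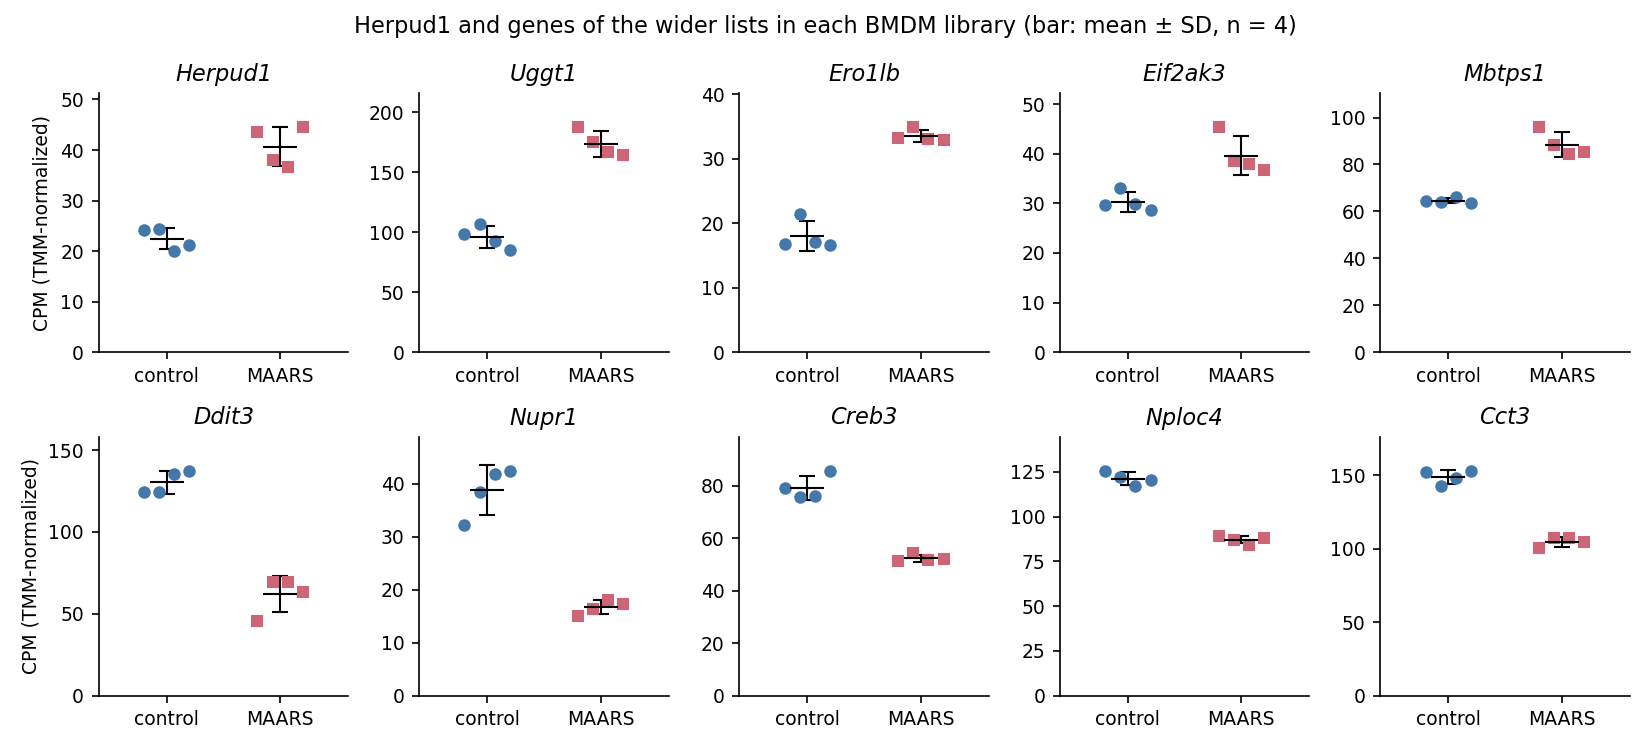
CPM (y axis, TMM-scaled, from 0) of *Herpud1* and 9 genes named by rule from the wider lists in the 4 control gapmeR (blue circles) and 4 MAARS gapmeR (red squares) libraries, with mean and SD as bars. The 10 genes shown were picked because they differed between the groups, so that the groups do not overlap follows from this choice. Named genes with overlap, such as *Atf4*, *Atf6* and *Dnajb6*, are not shown. The upper row rose, as *Uggt1* from 95.7 to 173.6 CPM, and the lower row fell, as *Ddit3* from 130.4 to 62.02 CPM.

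The genes holding the promoter elements were also described as groups, added after the data were seen and leaving the 10 genes out. Beside them, 21.3% of all genes tested rose and 24% fell, with a median of 0.01, and no group was tested against these shares. Of 12 other genes tested with an ERSE, 3 rose, 4 fell and 5 did not pass (median -0.04). *Ero1lb* was among those that rose, and the ER genes *Creld2* (-0.31, edgeR adjusted p = 0.00442), *Syvn1* (-0.21, edgeR adjusted p = 0.0132) and *Pdia6* (-0.14, edgeR adjusted p = 0.0344) among those that fell. The ERSE genes of the 10 likewise went both ways, with *Hsp90b1* called higher and *Calr* lower. Of 7 other genes with ERSE-II, too few to read a share from, 4 rose by edgeR (median 0.27), namely *Rbm39* (0.53), *Lgalsl* (0.47), *Lrif1* (0.28) and *Nucb1* (0.27), while the cochaperone gene *Dnajb11* was at 0.05. In this group 0 fell by edgeR, at an adjusted or unadjusted p under 0.05, or by DESeq2 or limma-voom. Of 53 with a CARE, 17 rose and 11 fell (median 0.08). *Nupr1*, which fell, and *Asns*, which rose, both hold one. Of 101 with the TGACGTGG core, 24 rose and 24 fell (median 0.03).

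The libraries were checked for their labelled cell type. All 8 macrophage markers were tested, with summed levels of 13836 to 17118 CPM in controls and 17011 to 20241 CPM with MAARS gapmeR, most of it from *Lyz2*. By edgeR, 5 of the 8 were higher and 2 lower. Among all genes tested, 21.3% were called higher and 24% lower, and no marker list was tested against these shares. Plasma cells are rich in these ER genes, and of the B and plasma cell markers, *Mzb1* was at 0 in every library. The sum over that list was 24.4 to 29.7 CPM in controls and 20.2 to 31.1 with MAARS gapmeR, most of it from *Prdm1*. Fibroblasts secrete collagen, and their 7 markers summed to 440.5 to 1010 CPM in controls and 694.6 to 1200 CPM with MAARS gapmeR, overlapping. Most of this sum came from the collagen genes *Col1a1* and *Col1a2*. Of the 5 tested, 0 were called by edgeR, DESeq2 or limma-voom, and 1 was at an unadjusted edgeR p under 0.05. The 7 megakaryocyte and erythroid markers summed to 237.4 to 315.0 CPM in controls and 508.3 to 608.3 CPM with MAARS gapmeR, with 3 of 4 tested higher, mainly through *Pf4*. Neutrophil (72.9 to 212.2 and 75.6 to 120.9 CPM), T and NK cell (65.9 to 85.7 and 40.7 to 51.5 CPM), dendritic cell (1.18 to 2.81 and 1.52 to 1.94 CPM) and mast cell markers (0.408 to 0.922 and 0.358 to 0.597 CPM) had sums below those of the fibroblast list. The T and NK cell sum came almost entirely from *Cd4*, the 1 marker of that list tested, which fell, and *Cd3g* was at 0. The part of these cells in the results was not tested.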

How the data were processed

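Per the labels and the study's methods, the authors trimmed reads of 2 × 100 bases (Trimmomatic 0.36), aligned them to GRCm38 using STAR 2.5.2b and the transcripts of Ensembl release 79, and obtained gene counts from featureCounts (Subread 1.5.2). Strand setting and treatment of multimapping reads are not given in the sources used here. The deposited values are raw counts for 8 libraries, each used with its labelled group. From these, edgeR 4.0.16 (R 4.3.3) gave all tests: filterByExpr (minimum count 10, total 15), TMM factors, glmQLFit and glmQLFTest, two-sided, p-values being adjusted after Benjamini and Hochberg across 13051 genes. An SE is the size of the log2 fold change over the root of F, and 95% intervals use the test's degrees of freedom. Depth was 19287279 to 24541205 counts, and no pair of libraries agreed within sampling noise (chi-square of 4.02 to 14.1 per gene). GENCODE M21 held 99.5% of the gene IDs and gave positions, exon lengths and overlaps. Promoters came from RefSeq.

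The 10 genes and all lists were chosen with earlier results of these data known. The genes named are *MAARS*, the 10, the gene of smallest p in each direction of each list, *Atf4*, *Ddit3*, *Eif2ak3*, *Atf6* and the 5 nearest *Hspa5*. Others are said to be named after their values were seen, as are all genes named by promoter element. A list of genes with an ER retrieval signal was not analysed here. The value of 1 cell type marker is not reported here. Alternatives were RLE and upper-quartile factors, DESeq2 1.42.0, limma-voom (limma 3.58.1), no filter, a filter at 10 mean counts, a robust prior, each library left out, and 2 stricter thresholds for the counts of genes.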

Additional observations from a re-analysis of the deposited data

Results flagged for a closer look

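In 3 of 76 groups of 4 libraries tested among the named genes, 1 library stood apart from the other 3 by Dixon's criterion, where chance gives about 1 in 20. *Ero1lb* was 21.4 CPM in control library 5, against 16.6 to 17.1 in the other controls, and 34.9 CPM in MAARS gapmeR library 11. *Creb3* was 54.5 CPM in MAARS gapmeR library 11. Both genes kept their calls in all 15 alternatives.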

How the results depend on the processing

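*MAARS* kept its call in all 15 alternatives (-1.01 to -0.88). The 2 of the 10 genes that were higher became 1 at an adjusted p under 0.01 and with a log2 fold change of at least 0.25 in size, and 1 to 2 with a library left out. The 2 that were lower became 0 with that size. The 29 higher genes of the wider ER list became 50 with upper-quartile factors, 20 at 0.01 and 21 with the size threshold. The 42 lower ones became 23 with those factors, 25 at 0.01 and 17 with the size threshold. Of chaperones outside the ER, the 0 higher became 1 with upper-quartile factors and 0 to 1 with a library left out (1 without control library 5), and the 17 lower became 11 with those factors, 11 at 0.01 and 7 with the size threshold. Of genes that did not pass, upper-quartile factors turned *Xbp1* to 0.0319, *Dnajb9* to 0.00151, *Sdf2l1* to 0.00824 and *Edem1* to 0.0514, and leaving out a library gave *Sdf2l1* -0.124 to 0.00956 (positive without control 5) and *Edem1* -0.0595 to 0.0251 (positive without control 2 or 5, or MAARS gapmeR 9 or 15). Beyond the construction of each alternative, the cause was not tested. No paired analysis was possible because the groups share no replicate numbers.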
